A study of Mus musculus with 2 samples.

Results

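Expression was described for 10 genes of the cornified envelope, out of 17871 genes with a probe on the arrays. They were chosen by symbol. Flg2, Hrnr, Rptn, Lor and Ivl encode structural proteins, Tgm1, Tgm3 and Tgm5 encode transglutaminases, and Casp14 and Asprv1 encode proteases that act on filaggrin or its precursor. The file symbols named 8 of the 10 directly. Flg2 was listed under the older symbol EG229574 and Asprv1 under 2300003P22Rik, and both were recognised by Entrez number or RefSeq accession. The 10 genes had 13 of the 25697 probes, with 3 for Tgm5, 2 for Rptn and 1 for each other gene. Filaggrin itself (Flg) was not analysed here.

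Keratinocyte RNA from 2 groups of mice was hybridised to Illumina bead arrays, with 1 array per group and RNA from 3 mice on each array. The KO-labelled array held RNA of mice of genotype VDR fl/fl with K14 driven Cre, in which the vitamin D receptor gene Vdr is meant to be removed from cells that express keratin 14, a keratin of basal epidermal cells. The CON-labelled array held RNA of littermates of genotype VDR fl/fl. All mice were 3 months old and on a diet low in calcium. The skin was trypsinised and the epidermis lifted off the dermis before keratinocytes were isolated. Since each group is 1 array of pooled RNA, the spread between replicates is unknown, and no difference below carries a test or a p-value.

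The cornified envelope replaces the plasma membrane of keratinocytes as they die in the upper epidermis. Transglutaminases join glutamine and lysine residues of its precursor proteins, among them involucrin, which forms an early scaffold, and loricrin, which makes up most of its mass. Filaggrin family proteins are held in keratohyalin granules as large precursors with many repeats and an S100-type calcium-binding start, and are cut by proteases during cornification. In mouse skin, calcium rises towards the granular layer, where these genes are expressed.

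The sequences just upstream of the annotated starts are shown for the 5 structural genes and for Tgm3 and Tgm5, transglutaminase genes that differed in opposite directions, because shared letters near the start were one feature that the choice of genes did not use. Each is the 120 bases before the start, 5′ to 3′ on the strand of the gene, from RefSeq on GRCm38.p6. Capitals mark the motif TGANTCA on either strand and the TATA box letters TATAAA on the gene's strand. TGANTCA takes in the AP-1 consensus letters TGACTCA and TGAGTCA but is wider.
Flg2, chr3:93197153-93197272, plus strand: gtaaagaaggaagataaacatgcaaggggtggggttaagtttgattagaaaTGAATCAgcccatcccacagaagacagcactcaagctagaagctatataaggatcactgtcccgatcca
Hrnr, chr3:93319629-93319748, plus strand: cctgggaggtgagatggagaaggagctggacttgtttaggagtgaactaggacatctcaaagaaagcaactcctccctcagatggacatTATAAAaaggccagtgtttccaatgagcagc
Rptn, chr3:93393579-93393698, plus strand: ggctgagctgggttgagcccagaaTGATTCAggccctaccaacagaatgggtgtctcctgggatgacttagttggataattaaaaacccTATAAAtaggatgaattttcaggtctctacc
Lor, chr3:92083143-92083262, minus strand: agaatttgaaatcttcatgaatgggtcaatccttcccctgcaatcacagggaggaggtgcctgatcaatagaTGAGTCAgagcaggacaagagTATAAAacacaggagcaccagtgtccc
Ivl, chr3:92573736-92573855, minus strand: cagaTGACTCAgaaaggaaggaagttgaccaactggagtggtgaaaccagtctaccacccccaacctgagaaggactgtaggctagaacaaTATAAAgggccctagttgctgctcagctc
Tgm3, chr2:130012220-130012339, plus strand: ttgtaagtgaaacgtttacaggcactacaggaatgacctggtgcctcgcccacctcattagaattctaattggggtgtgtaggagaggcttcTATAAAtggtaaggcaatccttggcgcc
Tgm5, chr2:121085842-121085961, minus strand: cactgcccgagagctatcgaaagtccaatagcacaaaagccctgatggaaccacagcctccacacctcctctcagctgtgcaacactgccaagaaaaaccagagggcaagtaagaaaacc

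In the 250 bases upstream, TGANTCA was present for 4 of the 5 structural genes (Flg2, Rptn, Lor and Ivl) and for 0 of the 5 enzyme genes, against 6.75% of 32851 upstream windows of the same length. Tgm1 has 2 annotated starts, so the 10 genes had 11 windows. The first base of TGANTCA lay 69 bases before the start in Flg2, 96 in Rptn, 48 in Lor and 116 in Ivl. The letters were TGAATCA in Flg2, TGATTCA in Rptn, TGAGTCA in Lor and TGACTCA in Ivl. Only those of Lor and Ivl are AP-1 consensus letters, whose share over all windows was not counted. TATAAA was present for Hrnr, Rptn, Lor, Ivl and Tgm3, against 7.59% of windows, and began 27 to 31 bases before the start in each. Half-sites of the kind bound by nuclear receptors were searched on both strands. AGGTCA was found for Ivl, Rptn, Tgm1 and Tgm3 (14% of windows), AGTTCA for Hrnr and Rptn (11.8%) and GGTTCA for Rptn and Casp14 (8.85%). A pair of GNTCA spaced by 4 bases, which can overlap such half-sites, was found for 0 of the 10 genes and in 0.548% of windows. These matches are descriptions of letters in short windows, and receptor binding was not measured.

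Vdr was the gene targeted, and its signal was no lower on the KO-labelled array. Its probes had signals of 2667, 1691.8 and 304.7 on that array, against 2468, 1514 and 237.8 on the CON-labelled array. Probe positions were not analysed here, and a probe outside the removed part would check nothing, so every direction given rests on the label. The pools also differed in sex-linked transcripts. After background removal, the probes of Xist were 2.22-fold and 2.03-fold higher on the KO-labelled array. The brightest of Ddx3y was 7.87-fold lower there and that of Kdm5d 2.36-fold lower. With the background kept, the signals of that Ddx3y probe were 210.3 on the KO-labelled array and 828.5 on the CON-labelled array. Those of Kdm5d were 161 against 216.9, and 161 lay near the lowest detected signal of 159.2 on the KO-labelled array. The cells carried the defining epidermal transcripts, with Krt14 at 32614 and 35929.6 and Krt10 at 34069.2 and 35147.9 on the KO-labelled and CON-labelled arrays, near the highest signals of 40891.1 and 41510.6. Levels after background removal were summed over marker lists. The 7 basal markers had a sum on the KO-labelled array 0.893 times that on the CON-labelled array, and the 6 detected of 7 suprabasal markers 1.02 times. By gene, 1 basal marker had a log2 difference above 0 and 6 below, and 2 suprabasal markers above 0 and 4 below. Of the inner root sheath markers, where Tgm3 is also expressed, 6 of 10 were detected, with a summed level of 4168 against 4946, and Gata3, which made up most of the sum, differed by -0.08 on the log2 scale. The inner root sheath keratins Krt26, Krt27, Krt71 and Krt73 were at least 2-fold lower on the KO-labelled array after background removal, Krt26 only as a bound. In the deposited normalized values their log2 differences were -0.54, -0.90, -1.40 and -0.81, so that Krt71 alone stayed past 2-fold there. The 4 detected of 7 Langerhans cell markers had a summed level of 6308 against 3300. For melanocytes 4 of 8 markers were detected, with 107.1 against 564.3. Most of that gap came from Dct (signals of 162.3 against 533.5), and with the background kept the sum was 573.5 against 1088.1. For fibroblasts 4 of 8 were detected, with 521.3 against 1137. Col6a1 made up most of this gap (signals of 437.8 against 929.9), and the sum with the background kept was 995.1 against 1674.5. The sum for hair shaft keratinocytes was 138.0 against 340.1 (5 of 11 detected), or 726 against 981.7 with the background kept, and that for sebaceous cells 5224 against 4570 (5 of 7 detected). Those for T cells were 1523 against 1667 (4 of 6 detected) and for endothelium 71.2 against 87.1 (2 of 5 detected). Thy1 made up most of the T cell sum and Scd1 most of the sebaceous sum, and both differed by -0.01 on the log2 scale. By gene, 1 T cell marker was above 0 and 3 below, and 3 sebaceous markers were above 0 and 2 below. The part of these differences in the results below was not tested, and in bulk RNA a change in the number of cells of a type cannot be told apart from a change in RNA per cell.

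Of the 10 envelope genes, 2 were at least 2-fold higher on the KO-labelled array, Hrnr and Tgm3, where 1.28% of the 9547 detected genes were. None of the 10 was at least 2-fold lower, where 1.11% of detected genes were. The log2 differences, KO minus CON after background removal and quantile normalization, ranged from -0.53 for Tgm5 to 1.08 for Hrnr, with 7 genes above 0 and 3 below. Their median was 0.37, against 0.00 over all detected genes. All 10 were detected on both arrays by at least 1 probe, judged by signal rank, and 11 of the 13 probes were detected on both.

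**Figure D1:**
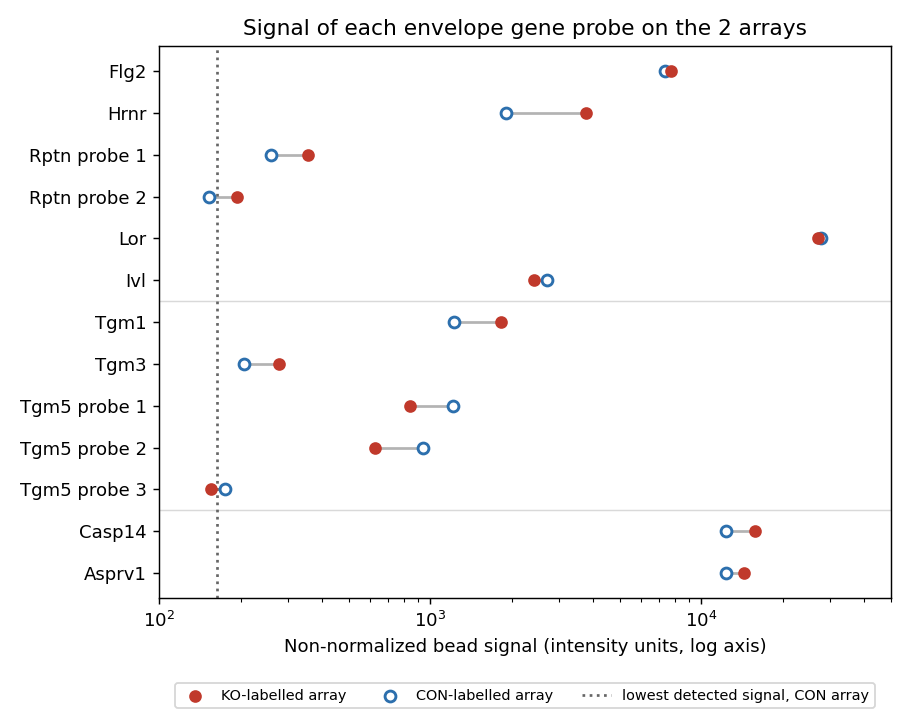
Non-normalized bead signal (horizontal, log axis) of each of the 13 probes, with the KO-labelled array as filled points and the CON-labelled array as open points. The dotted line is the lowest detected signal on the CON-labelled array (163.5). Hrnr shows the widest gap among the brighter probes, the points of Lor and Flg2 nearly coincide, and the 3 probes of Tgm5 all lie lower on the KO-labelled array.

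The structural genes split into a pair that was higher on the KO-labelled array and a trio that differed little. Hrnr encodes hornerin, a repeat-rich S100 fused-type protein of the granular layer and the envelope. Its signal was 3757 on the KO-labelled array and 1908.8 on the CON-labelled array, and its rank among the 25697 probes was 892 and 1953. The log2 difference was 1.08 (2.11-fold higher), and in the deposited normalized values it was 1.01, from 4067.7 against 2018. Hrnr thus passed 2-fold with background removed and, narrowly, with background kept after normalization. The ratio of its non-normalized signals was 1.97, just under 2-fold. The detected genes were ranked by mean level into 5 bins of like brightness. Among the 1910 genes of the brightest bin, where Hrnr lies, 0.366% were at least 2-fold higher and the SD of the log2 differences was 0.23. Such an SD, here and below, is a spread between genes and not the error of a single gene.

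Rptn encodes repetin, another S100 fused-type protein and a substrate of transglutaminases. Its brighter probe had signals of 355.4 on the KO-labelled array and 258.5 on the CON-labelled array, a log2 difference of 0.88 (1.84-fold higher). The deposited normalized signals of this probe, in which the background appears to be kept, were 444.4 against 313.0 and thus 1.42-fold higher. The dimmer probe had 194.4 against 153.1, and on the CON-labelled array it was not well above background. On the background-removed scale the KO-labelled array was at least 1.95-fold higher for it, set against the dimmest value that still counted as detected. With background kept, as deposited, this dimmer probe was 1.46-fold higher. Bounds given below hold on the background-removed scale alone. Both probes were thus brighter on the KO-labelled array, at signals where background removal widens a fold.

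Flg2 encodes filaggrin 2, whose gene lies beside that of filaggrin. Its signal was 7743.3 on the KO-labelled array and 7368.6 on the CON-labelled array, a log2 difference of 0.12 (1.08-fold higher). Lor, the gene of loricrin, had 27111 against 27747.2, a log2 difference of -0.01. The Lor probe ranked 34 and 33 of all probes on the KO-labelled and CON-labelled arrays, close to the top of the signal range. Ivl, the gene of involucrin, had 2407.3 on the KO-labelled array against 2698.6 on the CON-labelled array, a log2 difference of -0.13 (1.09-fold lower). These differences of Flg2, Lor and Ivl were all smaller than the SD of 0.23 of their bin.

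The transglutaminase genes did not share a direction. Tgm1 encodes the membrane-anchored transglutaminase of the envelope, loss of which causes lamellar ichthyosis in people. Its signal was 1821.3 on the KO-labelled array and 1222.5 on the CON-labelled array, a log2 difference of 0.69 (1.61-fold higher). Its difference was 0.59 in the deposited normalized values (1991.1 against 1320.2). The gene therefore stayed below 2-fold in either set of values, in a bin whose SD was 0.30.

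Tgm3 encodes a soluble transglutaminase that is activated by proteolysis and is expressed in both the upper epidermis and the hair follicle. Its single probe was dim, with 276.0 on the KO-labelled array and 205.1 on the CON-labelled array. The log2 difference was 1.02 (2.02-fold higher) after background removal. In the deposited normalized values the probe gave 344.5 against 242.8, which is 1.42-fold higher, so its place at 2-fold depended on the background step. In its bin, the second dimmest, 3.04% of genes were at least 2-fold higher and the SD was 0.50.

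Tgm5 encodes a transglutaminase of the upper epidermis whose loss in people causes superficial skin peeling. Its brightest probe had 843.6 on the KO-labelled array and 1213.9 on the CON-labelled array, a log2 difference of -0.53 (1.44-fold lower). The second probe had 626.6 against 940.1, a log2 difference of -0.63 (1.55-fold lower). The third had 155.4 against 175.2 and was not well above background on the KO-labelled array. It was at least 1.33-fold lower there on the background-removed scale. With background kept, as deposited, it was 1.17-fold lower. All 3 Tgm5 probes were thus dimmer on the KO-labelled array, although probes of 1 gene share the same RNA and are not replicates.

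**Figure D2:**
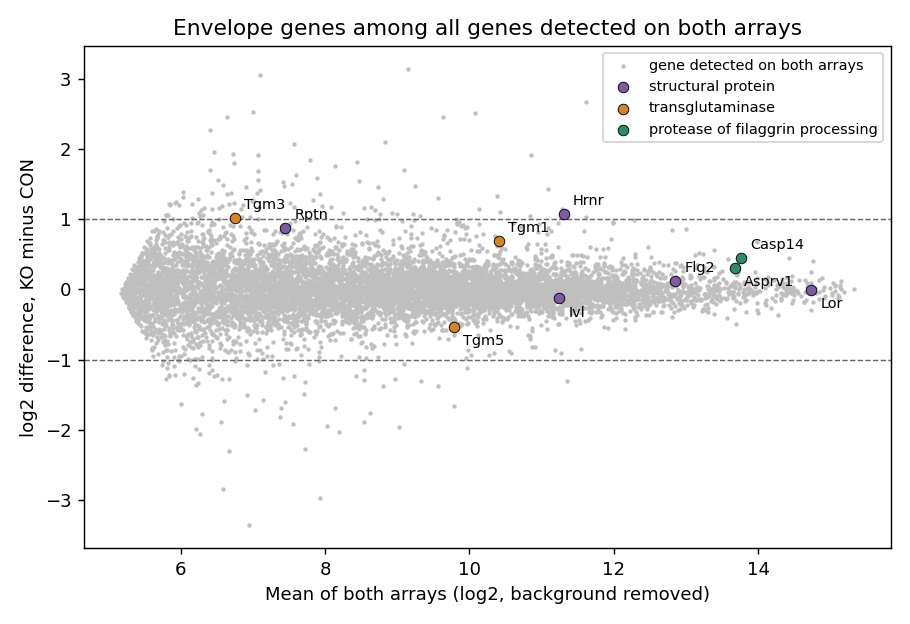
Log2 difference, KO minus CON (vertical), against the mean of both arrays (horizontal, log2 after background removal) for every gene detected on both arrays (grey) and for the envelope genes by role (coloured). Dashed lines mark 2-fold. Hrnr stands at 1.08 where few genes of like signal reach 2-fold, Tgm3 at 1.02 lies where the cloud is wide, and Tgm5 is the lowest of the 10 at -0.53.

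Both protease genes were bright and somewhat higher on the KO-labelled array. Casp14 encodes caspase-14, a protease of cornifying keratinocytes that takes part in breaking filaggrin down to amino acids. Its signal was 15830.7 on the KO-labelled array and 12394.7 on the CON-labelled array, a log2 difference of 0.45 (1.36-fold higher). Asprv1 encodes the skin aspartic protease that cuts the linkers of profilaggrin in mice. Its signal was 14385.6 on the KO-labelled array against 12304.7 on the CON-labelled array, a log2 difference of 0.30 (1.23-fold higher). The deposited normalized signals gave 1.32-fold for Casp14 and 1.22-fold for Asprv1. Neither reached 2-fold, and both exceeded the SD of 0.23 of the brightest bin.

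Set side by side by role, the 5 enzyme genes had a median log2 difference of 0.45 and the 5 structural genes 0.12. The 3 transglutaminase genes had a median of 0.69, and the 2 protease genes 0.37. Among the enzymes 4 of 5 were above 0, with Tgm5 the exception, and among the structural genes 3 of 5 were, with Lor and Ivl below. The ranges of the roles overlapped, since Hrnr lay above every enzyme gene and Tgm5 below every structural gene. The difference between structural and enzyme medians was -0.33, and it lay between -0.33 and -0.28 over the 8 alternative processings. The 2 detection filters cannot move it, and the mean over probes did not. As reported and in each alternative, it was the value of Flg2 minus that of Casp14, both bright. Its narrow range therefore does not show how the other genes of each role moved.

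**Figure D3:**
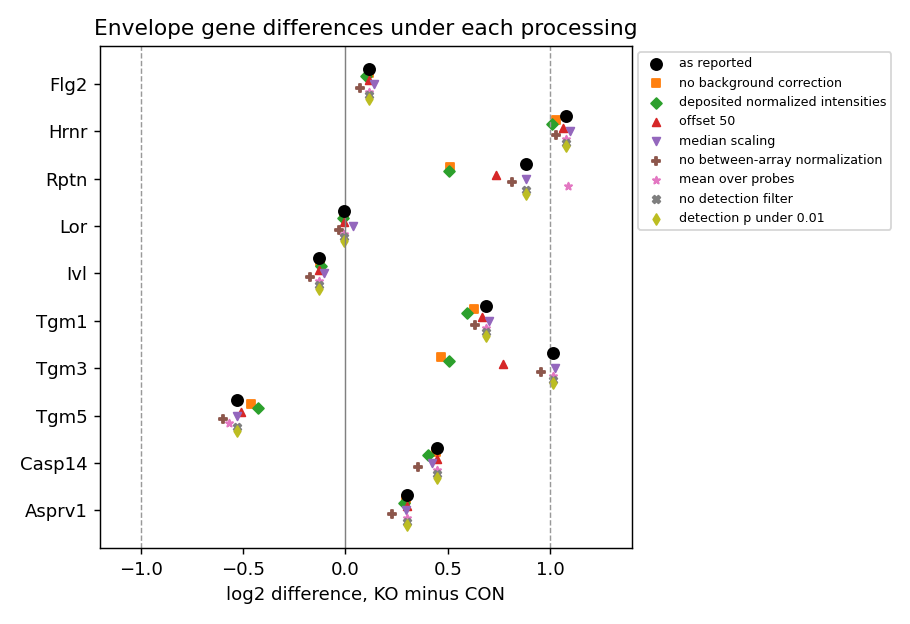
Log2 difference, KO minus CON (horizontal), of each envelope gene as reported (black) and under 8 alternative processings (coloured). Dashed lines mark 2-fold. Hrnr lies at or beyond 1.01 in each, Rptn and Tgm3 move to about 0.5 where the background is kept, and Tgm5 lies between -0.60 and -0.43.

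Other genes of envelope assembly were taken as lists from knowledge of the pathway. The lists held no gene of the small proline-rich (Sprr) or Lce1 families, so their counts and medians do not cover those. Detected Sprr and Lce1 genes of the chromosome 3 stretch described below differed by 0.03 (Lce1m) to 2.46 (Lce1d) on the log2 scale. Of 25 other envelope and granular layer genes, 15 were detected and 0 reached 2-fold in either direction, where 1.28% of all detected genes were higher and 1.11% lower by that much. At those shares, counts of 0 in lists of this size do not set them apart from other genes, here and in the lists below. Of the 15, 9 were above 0 and 6 below, with a median of 0.10 (0.06 with bounds). The 4 brightest were Dmkn, Krtdap, Sbsn and Cdsn, secreted or junctional proteins of the upper epidermis. Dmkn differed by -0.04, Krtdap by -0.12, Sbsn by 0.06 and Cdsn by 0.11 on the log2 scale. The periplakin gene Ppl, a desmosome-linked scaffold of the envelope, had 9915.6 on the KO-labelled array and 11421.9 on the CON-labelled array, and the sciellin gene Scel had 4189.1 against 4795. Cnfn, the gene of cornifelin, was 1.29-fold higher (5571.8 against 4461.2). Pglyrp4, which encodes a peptidoglycan recognition protein and lies in the same complex, showed the largest difference of the list at 0.84 (847.7 against 553.2). Ppl, Scel, Cnfn, Pglyrp4, Lce1m and Lce1d were named after their values were seen.

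Of 15 other genes of crosslinking and of the lipid envelope, 8 were detected and 0 reached 2-fold (1.28% of all detected genes higher, 1.11% lower), with a median of 0.18. The lipoxygenase genes Alox12b and Aloxe3, whose products prepare ceramides for attachment to the envelope, were 1.49-fold and 1.36-fold higher on the KO-labelled array, with 2258.3 against 1602.7 and 2590.2 against 1994. Ctsh, the gene of cathepsin H, differed by 0.03 and the sulfotransferase gene Sult2b1 by -0.03 on the log2 scale. Among the remaining transglutaminase genes and the factor XIII subunit genes, named after their values were seen, only Tgm2 was detected. Its signal was 168.1 against 165.2, close to background on both arrays. Tgm7 was not analysed here. Tgm4, Tgm6, F13a1 and F13b were not well above background on either array.

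Of 17 other genes that process filaggrin or its products, 10 were detected and 0 reached 2-fold (again 1.28% of all detected genes higher, 1.11% lower), with a median of 0.07, 5 above 0 and 5 below. Hal encodes histidase, which turns histidine set free from filaggrin into urocanic acid, and was 1.42-fold higher on the KO-labelled array (11366.1 against 8367). The kallikrein genes went opposite ways, with Klk7 at 0.31 and Klk5 at -0.31, and the phosphatase gene Ppp2ca differed by 0.16. Blmh, the gene of bleomycin hydrolase, which completes filaggrin breakdown, had 1961 against 2094. Prss8, the gene of the protease prostasin, was 1.36-fold higher (1105.5 against 884.4). The peptidylarginine deiminase genes Padi1, Padi2, Padi3 and Padi4, from a family with members that citrullinate filaggrin, were not well above background on either array. Blmh, Prss8 and the Padi genes were named after their values were seen.

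**Figure D4:**
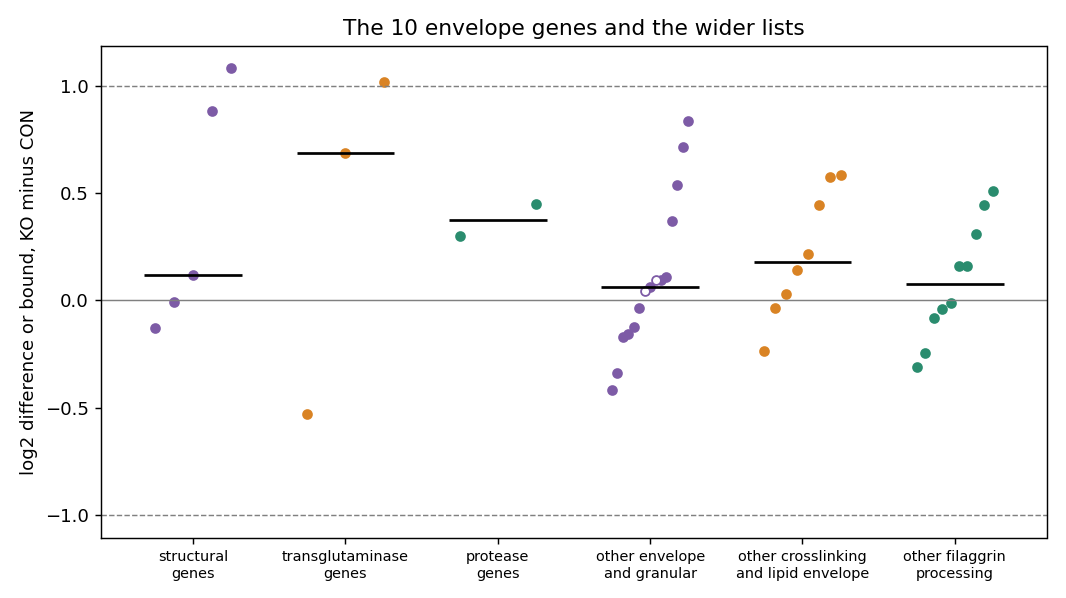
Log2 difference or bound, KO minus CON, of each detected gene of the 3 roles and of the 3 wider lists. Each point is 1 gene, open points are genes with only a bound, black bars are medians and dashed lines mark 2-fold. The points of the wider lists, which hold no Sprr or Lce1 genes, all lie within 2-fold. Their medians lie nearer 0 than those of the enzyme roles.

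The 5 structural genes lie on chromosome 3 within the epidermal differentiation complex, a cluster of genes for envelope and S100 proteins. In a stretch of 56 protein-coding genes from 3 before Lor to 4 after the gene of Rptn, 32 were detected. Counting bounds, 10 of these were at least 2-fold higher on the KO-labelled array, Hrnr among them, and 1 was at least 2-fold lower, against 1.28% and 1.11% of all detected genes. The median over the 32 was 0.80 (0.48 with bounds). Lor and Ivl, which differed by -0.01 and -0.13, lie next to genes that differed more. The neighbour of Lor, Prr9, had 136.7 on the KO-labelled array, where it was not well above background, against 248.1 on the CON-labelled array. It was at least 3.32-fold lower on the background-removed scale and 2.10-fold lower with background kept, as deposited after normalization. The neighbour of Ivl, Sprr4, was 3.77-fold higher on the KO-labelled array (3663.8 against 1110.4). Hrnr and Rptn are adjacent in gene order, and both were higher by 0.88 or more on the log2 scale, while Flg2, on the other side of the filaggrin gene, differed by 0.12. Several genes in the stretch, such as those of the Sprr2 and Lce1 families, are near-identical, so a probe may measure more than 1 copy, and repeats within Hrnr, Flg2 and Rptn may likewise bind a probe more than once.

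**Figure D5:**
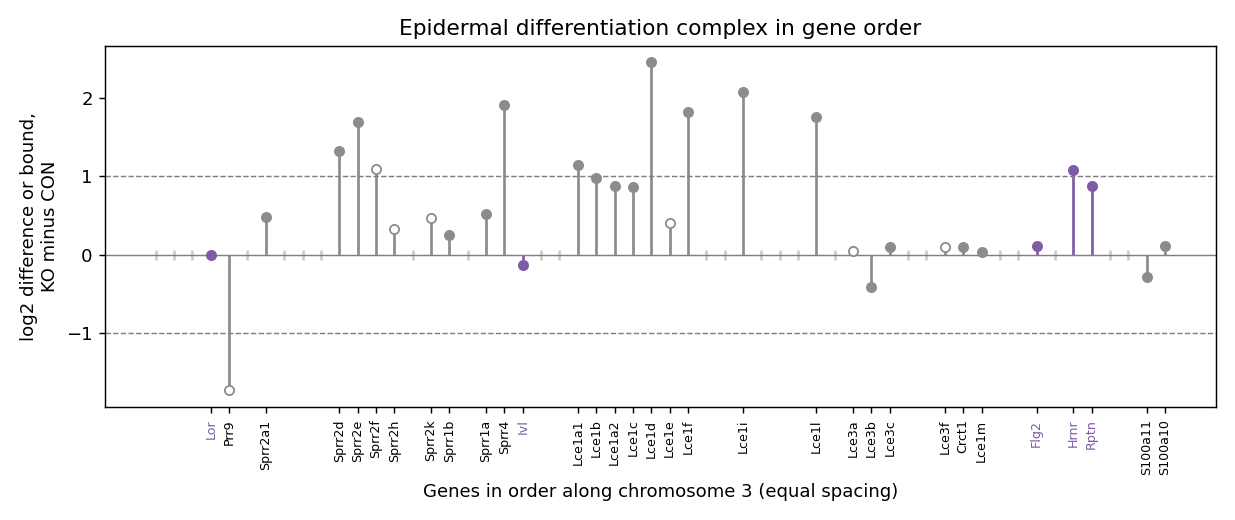
Log2 difference or bound, KO minus CON (vertical), of the detected genes of a stretch of 56 protein-coding genes on chromosome 3, in gene order with equal spacing. Purple marks the 5 structural genes, open points are bounds, short ticks at 0 are genes not detected or not analysed, and dashed lines mark 2-fold. Lor, Ivl and Flg2 lie close to 0, and Hrnr and Rptn stand together at 1.08 and 0.88.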

How the data were processed

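RNA of 2 pools was read on 1 Illumina array each, exported with GenomeStudio 2011.1 per the submitters' processing notes. The deposited non-normalized table holds bead intensities on a linear scale with the background kept, per the file headers. Sorted, the deposited normalized intensities of the arrays match to within 0.3 units. Their method is not given in the sources used here, and they equal the deposited value table. That their background was kept was read from their level. Their medians were 169.4 on the KO-labelled array and 169.5 on the CON-labelled array, against 155.4 and 158.3 for the non-normalized signals. The deposited detection p-values are not in the row order of the signals (Spearman's rho -0.0073 on the KO-labelled array and -0.0053 on the CON-labelled array). They were therefore reassigned by signal rank, and a probe was detected under 0.05, which gave 47.3% and 46.7% of probes.

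Background was removed with normexp in limma 3.58.1 (R 4.3.3) through these p-values and an offset of 16. Values were then put on the log2 scale and quantile normalized. These steps were tested on simulated data with changes placed only on probes well above background. Signals as dim as those of Tgm3 and Rptn lay below that level, so the test did not cover them. The fitted background was 140.9 (SD 10.1) on the KO-labelled array and 143.2 (SD 10.3) on the CON-labelled array. Each gene was represented by its brightest probe. Genes detected on 1 array have a bound. Symbols were updated through GRCm38.p6 (25376 probes matched). Summed levels are sums of background-removed values on a linear scale. Brightness bins split the 9547 detected genes by mean level into 5, and their SDs cover genes detected on both arrays. The number of arrays limits the precision.

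The genes and lists were chosen with earlier results of these data known. The genes named were all 10 envelope genes, members of the wider lists at 2-fold or among the 4 brightest of a list, Vdr, Krt14, Krt10 and sex-linked genes as checks, and detected immediate neighbours in gene order. The inner root sheath keratins, Gata3, Dct, Col6a1, Thy1 and Scd1 were named after their values were seen. Likeness of pattern over 2 arrays was not used. The alternatives tried were no background correction, the deposited normalized values, an offset of 50, median scaling, no scaling between arrays, the mean over probes, no detection filter and a detection p under 0.01.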

Additional observations from a re-analysis of the deposited data

How the results depend on the processing

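Of the 8 alternatives, the 2 changes of the detection filter leave the values of the envelope genes as they are, and the mean over probes can move Rptn and Tgm5 alone. Of the other 52 log2 differences of these genes, 51 kept their sign. The exception was Lor, near 0, at 0.04 with median scaling. The number of envelope genes at least 2-fold higher, 2 as reported, was 1 with an offset of 50, in the deposited normalized signals, without scaling between arrays and without background correction, and the gene that stayed was Hrnr (1.01 to 1.10). The number was 3 with the mean over probes, where Rptn reached 1.09. That mean took the difference of 1.30 of the dimmer Rptn probe as measured. This probe was not well above background on the CON-labelled array, and its bound was 0.96, below 2-fold. Tgm3 lay between 0.47 and 1.03 and Rptn between 0.51 and 1.09, lowest where the background was kept. Over all genes, 122 were higher and 106 lower as reported, against 65 and 47 at the larger offset of 50, 27 and 17 in the deposited normalized signals and 28 and 19 when the background was left uncorrected. Keeping the background, or adding more of an offset, narrows folds of dim probes by construction. The medians by role and of the wider lists all moved by less than 0.25, a fixed tolerance for changes of processing. It does not measure the spread between replicates. Within it, the transglutaminase median went from 0.69 as reported to 0.47 without background correction. No paired analysis was possible because each group had 1 array, and no replicate could be left out.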

Other observations

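The detection p-values as filed would have placed several of the envelope genes among undetected probes. Asprv1, ranked 131 and 181 of 25697 probes by signal on the KO-labelled and CON-labelled arrays, carried filed p-values of 0.805 and 0.997. Tgm1 carried 0.447 and 0.892, and Tgm3 carried 0.764 and 0.515. The dimmer Rptn probe, close to background on the CON-labelled array, carried 0 on both.

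Probes of 1 gene were compared within the wider lists, and the genes below were named after their values were seen. The widest split in opposite directions between detected probes was in Furin, the gene of a proprotein convertase, with -0.08 (3555.5 on the KO-labelled array against 3884.2 on the CON-labelled array) and 0.89 (224.4 against 183.2) on the log2 scale. The second of these probes was dim, and in the deposited normalized values the differences were -0.08 and 0.39. The 3 Sult2b1 probes differed by -0.03, -0.60 and -0.37 on the log2 scale, KO minus CON, at signals of 3560.8, 1091.1 and 359.9 on the KO-labelled array and 3775.9, 1655.3 and 448 on the CON-labelled array. The 2 Abca12 probes, both dim, differed by 0.59 (209.5 against 185.8) and -0.29 (171.4 against 186.3). In the deposited normalized values these Abca12 differences were 0.25 and -0.12. By contrast, the 3 Pglyrp4 probes were all higher on the KO-labelled array, by 0.84, 0.95 and 0.73.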
